A study of Rattus norvegicus with 24 samples.

Results

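The 7 genes described here were grouped as genes of pituicytes and the tanycyte lineage. They are the homeodomain regulators Lhx2, Rax and Nkx2-1, the HMG-box factor Sox3, the repressor Hes1, the secreted ligand Tgfb2 and the intermediate filament Vim. They were chosen by name with earlier results of these data known, so counts over the set are descriptions and not an independent test. Every probe set whose only gene symbol in the array annotation was one of the 7 was kept with no filter on intensity. The brightest of a gene's probe sets, by mean over all arrays, stood for it. This gave 7 of 14217 named genes and 9 of 31042 probe sets. Rax and Tgfb2 have 2 probe sets each, and the other 5 genes have 1. Messenger RNA had been measured on 24 rat expression arrays, in a study of brain structures that control blood pressure and body fluid in the spontaneously hypertensive rat (SHR) and the normotensive Wistar-Kyoto rat (WKY). From male SHR rats there were 5 arrays of the pituitary's neurointermediate lobe (NIL), 5 of the hypothalamic paraventricular nucleus (PVN), 4 of the supraoptic nucleus, also in the hypothalamus (SON), and 5 of a blood pressure centre in the brainstem, the rostral ventrolateral medulla (RVLM). Male WKY rats gave 5 arrays of the RVLM. Rats were 10 to 13 weeks old, no treatment is named for any group, and each array held RNA pooled from 5 rats. The WKY arrays of the NIL, PVN and SON were not analysed here, so every comparison between structures is within SHR.

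Pituicytes are the glial cells of the neural lobe. They surround the endings of the vasopressin and oxytocin axons that descend from the PVN and SON, and they arise from the floor of the developing forebrain, as do the tanycytes that line the floor of the ventricle in the hypothalamus. Bone morphogenetic protein and fibroblast growth factor signals from that floor pattern the pituitary, and in mice Nkx2-1, Lhx2, Rax, Sox3 and Hes1 all take part in forming the infundibulum or the neural lobe. The NIL also holds the melanotrophs of the intermediate lobe, so RNA from several cell types is mixed on each array, and more cells of a type cannot be told apart from more RNA per cell.

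Array medians lay between 35.9 and 46.5 intensity units, and the mean Spearman correlation of an array with the rest of its group was 0.912 to 0.970. The lowest, 0.912, was that of PVN array 3 and lay below its mean correlation of 0.936 with SON. Results of the 7 genes against the PVN are therefore also given without PVN array 3 where leaving it out changed a call or moved a value by over 1.5 times. Log2 differences near 0 that were not called are given here only. In PVN minus SON, Nkx2-1, Sox3 and Tgfb2 moved from 0.022, 0.047 and −0.0024 to 0.044, 0.085 and 0.036. Tgfb2 in PVN minus RVLM moved from −0.0045 to 0.034. Counts of list genes are given both ways where they differ. The tissue labels were checked against marker genes. Pomc, the melanotroph hormone precursor, had 611 to 1243 in NIL and at most 16.2 in every other array, and Avp and Oxt, the vasopressin and oxytocin precursors, were high in NIL, PVN and SON and at most 27.7 in the RVLM. The defining astrocyte filament Gfap had 152 to 254 in NIL, against 1265 to 2880 in PVN and 3248 to 4185 in SON. Crh, the corticotropin-releasing hormone gene, had 38.1 in PVN array 3, against 393 to 514 in the other PVN arrays and 14.6 to 19.6 in SON. The NIL arrays also carried anterior lobe hormone RNA in uneven amounts: Gh1, growth hormone, had 5471, 6068, 2957, 2494 and 693, and Prl, prolactin, had 2586, 3677, 331, 523 and 190, in arrays 1 to 5. Differences were tested on the log2 scale with limma, each p-value was Benjamini-Hochberg adjusted over all 31042 probe sets, and a gene is said to have risen or fallen where its adjusted p was under 0.05. The p-values measure the spread between pools, and precision is limited by how many arrays there are.

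Of the 7 genes, 5 were higher in NIL than in PVN and 1, Sox3, was lower (background: 23.9% of all 14217 genes were called higher and 22.2% lower). Against SON, 5 were higher and 2, Sox3 and Vim, were lower (background 21.2% and 19.7%). Against RVLM, 6 were higher and Sox3 did not pass (background 31.7% higher and 24.7% lower). Lhx2, Rax, Nkx2-1, Hes1 and Tgfb2 were the genes that rose in all 3 comparisons. The arrays of these 5 genes did not overlap between NIL and any other structure, where 37.1% of all genes did not overlap between NIL and PVN, 42.9% between NIL and SON, and 50.4% between NIL and RVLM. The median log2 difference of the 7 genes was 1.503 in NIL minus PVN, 1.53 in NIL minus SON and 2.29 in NIL minus RVLM, against 0.02, 0.03 and 0.11 over all genes. The 3 comparisons share the NIL arrays.

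**Figure D1:**
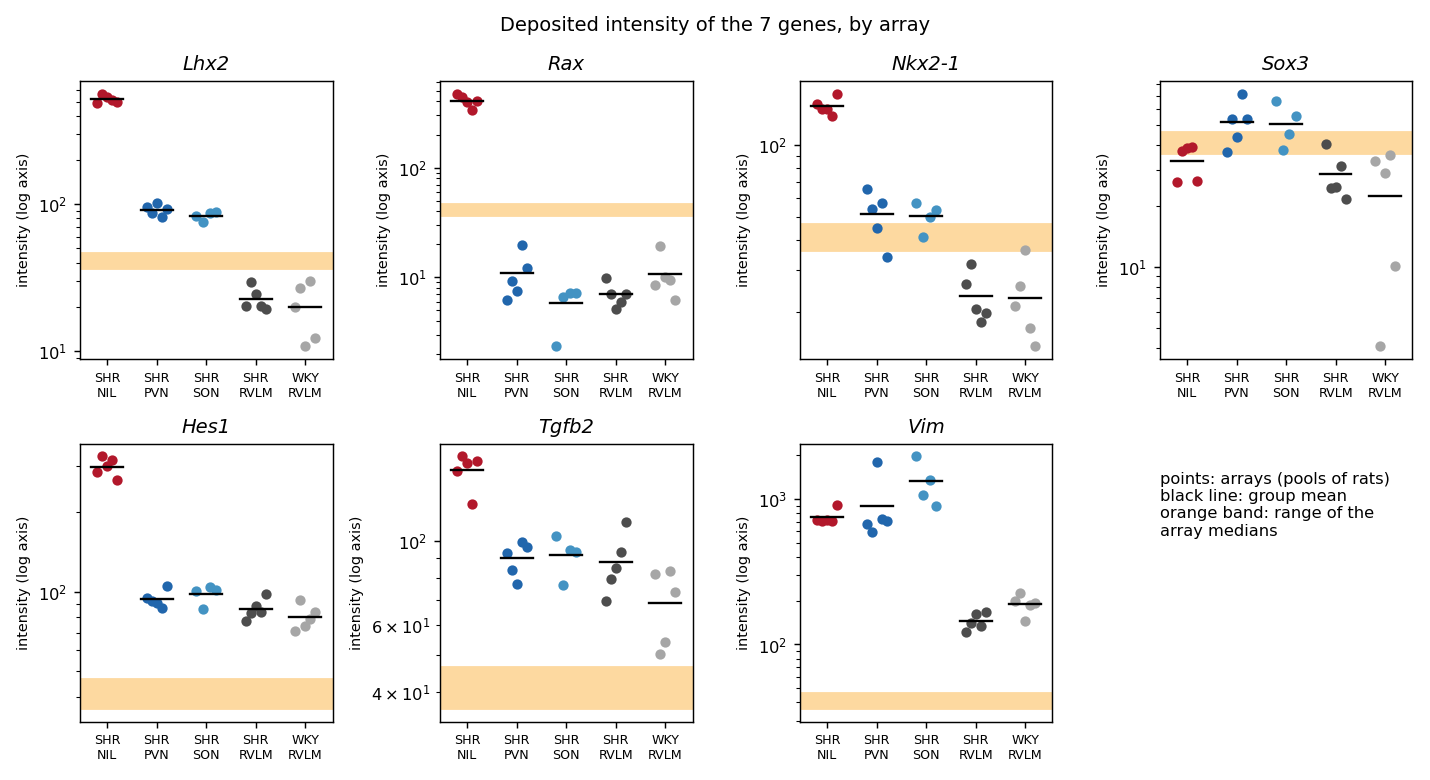
Intensity of each of the 7 genes on each array (log axis), with SHR NIL, SHR PVN, SHR SON, SHR RVLM and WKY RVLM from left to right; points are arrays, black lines are group means, and the orange band spans the array medians (35.9 to 46.5). The 5 NIL points lie above every other array for Lhx2, Rax, Nkx2-1, Hes1 and Tgfb2, whereas Sox3 is highest in PVN and SON, and Vim is high in NIL, PVN and SON with PVN array 3 (1787) apart from the other PVN arrays.

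Lhx2 encodes a LIM homeodomain factor that in mice is needed for the growth of the posterior pituitary and for keeping tanycytes distinct from ependymal cells. Its intensity was 493, 566, 538, 509.7 and 497 in the 5 NIL arrays. It was 96.4, 87.0, 102, 81.3 and 93.0 in PVN and 82.7, 75.6, 86.9 and 88.5 in SON. It was 20.3, 29.4, 24.6, 20.2 and 19.2 in SHR RVLM. The 3 levels did not overlap: NIL was high, the 2 hypothalamic nuclei were intermediate, and RVLM lay below the median of every array. Lhx2 averaged 521 ± 31.1 in NIL (SD, n = 5), against 91.9 ± 7.99 in PVN (n = 5), and the log2 difference was 2.46 (SE 0.126, adjusted p = 4.51e-13), or 5.52-fold. Against SON, with a mean of 83.4 ± 5.78 (SD, n = 4), the log2 difference was 2.63 (SE 0.134, adjusted p = 6.01e-13). Against RVLM, with 22.7 ± 4.24 (SD, n = 5), it was 4.44 (SE 0.126, adjusted p = 1.68e-17). Lhx2 was also higher in PVN than in RVLM by 1.98 and in SON than in RVLM by 1.81 on the log2 scale (adjusted p = 1.51e-10 and 1.14e-09). PVN and SON differed by 0.17 (95% interval −0.11 to 0.44, adjusted p = 0.533).

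Rax, the paired-type homeodomain factor that marks the eye field and the retina in development and tanycytes in the adult mouse, was bright in NIL and dim in every other structure measured. Its brightest probe set had 471, 436, 393, 332 and 408 in NIL. It had 6.15, 9.18, 7.46, 19.8 and 12.2 in PVN, 2.35, 6.68, 7.17 and 7.22 in SON, and 9.88, 7.05, 5.12, 5.94 and 7.02 in SHR RVLM. Every NIL array was bright and every other array lay below the lowest array median of 35.9. The mean was 408 ± 51.7 in NIL (SD, n = 5), against 10.97 ± 5.45 in PVN, 5.85 ± 2.35 in SON (n = 4) and 7.002 ± 1.80 in RVLM. The log2 difference was 5.29 against PVN (SE 0.317, adjusted p = 6.81e-12), 6.23 against SON (SE 0.337, adjusted p = 1.58e-12) and 5.80 against RVLM (SE 0.317, adjusted p = 8.71e-13). The second probe set of Rax read 68.5 to 86.6 in NIL and 0.550 to 2.30 in the other SHR arrays, with log2 differences of 5.99, 5.85 and 6.33 against PVN, SON and RVLM. No detection calls were used here, so whether the dim values carry Rax signal is unknown and the size of the rise is poorly fixed. With a pseudocount of 64 added to every value, the log2 difference was 2.64, 2.74 and 2.69 against PVN, SON and RVLM. Among PVN, SON and RVLM no difference of Rax passed the test (adjusted p = 0.0912 to 0.364).

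Nkx2-1 encodes the NK2 homeodomain factor of the ventral forebrain and infundibulum, which also directs thyroid and lung development. Its intensity in NIL was 148, 142, 142, 133 and 164. In PVN it was 65.6, 54.2, 44.9, 57.3 and 33.8, and in SON 57.0, 41.2, 50.0 and 53.6. In SHR RVLM it was 26.0, 31.7, 20.6, 18.0 and 19.8. The order of the 3 tiers was that of Lhx2, with NIL highest, PVN and SON overlapping each other, and RVLM lowest with no array reaching the lowest PVN array. Nkx2-1 averaged 146 ± 11.7 in NIL (SD, n = 5), against 51.2 ± 12.2 in PVN (n = 5), 50.5 ± 6.82 in SON (n = 4) and 23.2 ± 5.60 in RVLM (n = 5). It rose by 1.503 against PVN (SE 0.190, adjusted p = 1.07e-06), by 1.53 against SON (SE 0.202, adjusted p = 2.57e-06) and by 2.59 against RVLM (SE 0.190, adjusted p = 1.20e-10). PVN exceeded RVLM by 1.08 (adjusted p = 0.000127) and SON exceeded RVLM by 1.06 (adjusted p = 0.000317). PVN minus SON was 0.02, with a 95% interval of −0.40 to 0.44. Log2 sizes of Lhx2 and Nkx2-1 also shrank with a pseudocount of 64, to 2.72 and 1.23 in NIL minus RVLM and to 0.82 and 0.38 in PVN minus RVLM, and every call was kept.

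Sox3, a SOXB1 factor of neural progenitors that is expressed in the ventral hypothalamus and infundibulum of the mouse embryo, did not follow the homeodomain genes. Its intensity was 26.2, 37.2, 38.6, 39.0 and 26.5 in NIL. It was 36.8, 53.7, 43.5, 71.6 and 53.5 in PVN, and 65.9, 37.5, 45.2 and 55.3 in SON. It was 40.6, 24.4, 24.9, 31.5 and 21.7 in SHR RVLM. All values lay near the array medians and every pair of groups overlapped, with PVN and SON above NIL and RVLM on average. Sox3 averaged 33.5 ± 6.56 in NIL (SD, n = 5), against 51.8 ± 13.2 in PVN, and fell by 0.66 on the log2 scale (SE 0.208, adjusted p = 0.0151). Against SON, with 51.0 ± 12.3 (n = 4), it fell by 0.61 (SE 0.220, adjusted p = 0.0360). It was higher in PVN than in RVLM by 0.81 (adjusted p = 0.00467) and in SON than in RVLM by 0.76 (adjusted p = 0.0109), and NIL minus RVLM was 0.15 (adjusted p = 0.583). None of these 4 calls of Sox3 held when all 24 arrays shared 1 fit (adjusted p = 0.123 to 0.279). The fall against SON was also lost when any of 4 arrays was left out, NIL 1, NIL 5, SON 1 or SON 4 (adjusted p = 0.0852, 0.0882, 0.147 and 0.0891), and the difference between SON and RVLM was lost without SON array 1 (adjusted p = 0.0583). With a pseudocount of 64 the 4 differences were between −0.26 and 0.30.

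Hes1 is a basic helix-loop-helix repressor switched on by Notch, which holds progenitors back from differentiation and binds its own promoter. Its intensity was 285, 325, 299, 315 and 265 in NIL. It was 94.4, 92.3, 90.5, 86.4 and 105 in PVN, 101, 85.7, 104 and 102 in SON, and 77.5, 82.8, 88.0, 83.6 and 97.7 in SHR RVLM. NIL stood apart, and the other 3 structures overlapped in a narrow band. Hes1 averaged 298 ± 24.1 in NIL (SD, n = 5), against 93.7 ± 6.95 in PVN, 98.0 ± 8.29 in SON (n = 4) and 85.9 ± 7.56 in RVLM. The rise was 1.63 against PVN (SE 0.111, adjusted p = 6.07e-11), 1.59 against SON (SE 0.118, adjusted p = 3.24e-10) and 1.70 against RVLM (SE 0.111, adjusted p = 1.71e-11), or 3.01-fold to 3.25-fold. PVN minus SON was −0.04 (95% interval −0.28 to 0.21), PVN minus RVLM 0.08 (−0.16 to 0.31) and SON minus RVLM 0.11 (−0.13 to 0.36).

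The bases before the start of Hes1, Nkx2-1 and Vim are shown because the windows of Hes1 and Nkx2-1 hold the most motif matches of the 7 and that of Vim holds a TATA box. Each is the 250 bases before the start of the gene in RefSeq, build GRCr8, read 5′ to 3′ on the strand of the gene: chr11:84213046-84213295 on the minus strand, chr6:79734868-79735117 on the minus strand and chr17:81577011-81577260 on the plus strand. Capitals mark matches on either strand to GTGGGAA (the site of RBPJ, the DNA-binding partner of Notch), CACNAG (the N box bound by Hes repressors), ATTGG (the CCAAT box) and TATAAA (the TATA box), and no 2 matches overlap.
Hes1: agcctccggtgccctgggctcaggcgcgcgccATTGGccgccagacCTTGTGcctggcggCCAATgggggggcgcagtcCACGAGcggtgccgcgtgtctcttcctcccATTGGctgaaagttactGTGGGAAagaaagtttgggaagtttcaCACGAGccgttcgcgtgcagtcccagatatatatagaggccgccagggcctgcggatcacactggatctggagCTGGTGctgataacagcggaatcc
Nkx2-1: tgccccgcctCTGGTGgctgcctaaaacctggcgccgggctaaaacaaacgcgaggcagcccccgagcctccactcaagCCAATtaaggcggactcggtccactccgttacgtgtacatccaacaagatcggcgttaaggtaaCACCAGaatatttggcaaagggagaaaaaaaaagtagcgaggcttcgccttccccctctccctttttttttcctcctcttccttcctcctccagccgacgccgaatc
Vim: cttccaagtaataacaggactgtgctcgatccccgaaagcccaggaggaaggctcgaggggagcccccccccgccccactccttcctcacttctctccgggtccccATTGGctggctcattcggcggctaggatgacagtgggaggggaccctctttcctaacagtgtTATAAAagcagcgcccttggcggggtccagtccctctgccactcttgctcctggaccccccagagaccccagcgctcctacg
Hes1 held 1 RBPJ match, 124 bases before the start, 4 N boxes and 3 CCAAT boxes. Nkx2-1 held 2 N boxes and 1 CCAAT box, and Vim held 1 TATA box, 82 bases before the start, and 1 CCAAT box. Of the other genes, Lhx2 held 1 N box, Sox3 held 1 N box and 1 CCAAT box, and Rax and Tgfb2 held no match. The start used for Lhx2 lies inside the annotated span of that gene, so its window may not be upstream sequence. Of 33469 rat promoters of the same length, 5.27% held the RBPJ motif, 37.2% the N box, 34% the CCAAT box and 12.9% the TATA box. The homeodomain site TAATTA was also searched. It was in 4.86% of those promoters and in none of the 7 windows. A match describes letters only, and its bearing on the rises in NIL was not tested.

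Around the 7 genes, the rest of their pathways and families was read from lists. All lists used here were also written with earlier results of these data known. Their counts stand beside the shares over all genes. Those were 21.2% higher and 19.7% lower in NIL minus SON. They were 23.9% and 22.2% in NIL minus PVN, and 31.7% and 24.7% in NIL minus RVLM. For a listed gene whose mean in either group lies under the lowest array median of 35.9, whether the dim side carries signal is unknown and the log2 size is loose, as for Rax. Of 27 other Notch pathway genes on the array, of 28 listed, 9 were higher in NIL than in SON, 5 were lower and 13 did not pass, with a median log2 difference of 0.06 against 0.03 over all genes. Mfng, a glycosyltransferase that modifies Notch receptors, rose by 2.24 with 200.3 ± 23.3 in NIL and 42.2 ± 5.59 in SON, the coactivator Maml1 rose by 1.34, and Hes6, which opposes Hes1, rose by 1.05. Hes5, the other common Notch target of neural progenitors, fell by 1.76, with 16.3 ± 9.26 in NIL and 48.1 ± 4.12 in SON (SD, n = 5 and 4). The endocytic adaptor Numbl fell by 1.69 and the glycosyltransferase Rfng by 0.62. Against PVN 8 of the 27 were higher and 6 lower (9 and 7 without PVN array 3), and against RVLM 11 were higher and 5 lower. Rbpj, named after its values were seen, differed between NIL and SON by 0.06 (adjusted p = 0.701).

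Tgfb2 encodes transforming growth factor beta 2, a secreted ligand made by glia and neurons. Its brightest probe set had 153, 167, 161, 125 and 163 in NIL. It had 92.9, 83.8, 77.1, 99.1 and 96.6 in PVN, 103, 76.4, 94.9 and 93.7 in SON, and 69.5, 79.5, 84.7, 93.4 and 112 in SHR RVLM. The lowest NIL array, number 4, was above the highest RVLM array, and PVN, SON and RVLM overlapped. Tgfb2 averaged 154 ± 16.7 in NIL (SD, n = 5), against 89.9 ± 9.20 in PVN, 92.0 ± 11.2 in SON (n = 4) and 87.8 ± 16.03 in RVLM. It rose by 0.73 in each comparison, 1.66-fold (SE 0.144 to 0.153, adjusted p = 0.000281 against PVN, 0.000645 against SON and 0.000205 against RVLM). Its second probe set read 58.0, 65.9, 61.2, 55.6 and 76.9 in NIL, and 49.9, 54.2, 56.9 and 79.3 in SON. With that probe set NIL passed the test against RVLM only (0.70, adjusted p = 0.00628), with 0.27 against PVN (adjusted p = 0.323) and 0.08 against SON (adjusted p = 0.809), and it was called higher in SON than in RVLM (0.61, adjusted p = 0.0325), which the brightest probe set was not. The 2 probe sets of Tgfb2 thus disagree for the hypothalamic nuclei. Taken as the mean of its probe sets, Tgfb2 was called against SON at 0.41 (adjusted p = 0.0348).

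Of 26 other genes of the TGF-beta pathway on the array, of 30 listed, 10 were higher in NIL than in SON, 4 were lower and 12 did not pass, with a median of 0.41 against 0.03 over all genes. The activin subunit Inhbb rose by 3.72 (66.7 ± 16.2 in NIL, 5.91 ± 3.36 in SON), the ligand Tgfb3 by 2.87 (325 ± 29.3 in NIL, 45.4 ± 13.3 in SON), and Ltbp1, which stores latent TGF-beta in the matrix, by 2.21. The matrix protein Ltbp2 fell by 4.41, the corepressor Tgif2 by 0.92 and the matrix protein Tgfbi by 0.57. Against PVN 11 of the 26 were higher and 5 lower (14 and 4 without PVN array 3), and against RVLM 14 were higher and 2 lower.

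Vim encodes vimentin, the intermediate filament of tanycytes and pituicytes, and also of endothelial cells, fibroblasts and meninges. Its intensity was 715, 705, 717, 709 and 913 in NIL. It was 673, 593, 1787, 726 and 703 in PVN, 1968, 1068, 1354 and 899.96 in SON, and 122, 139.8, 161, 135 and 167 in SHR RVLM. The SON arrays were spread widely, a single PVN array lay among them, and every RVLM array was below all other SHR arrays. Vim averaged 752 ± 90.1 in NIL (SD, n = 5), against 145 ± 18.9 in RVLM, a rise of 2.29 (SE 0.242, adjusted p = 4.70e-08). It was also higher than in RVLM in PVN by 2.45 (adjusted p = 7.44e-08) and in SON by 3.06 (adjusted p = 7.44e-09, 8.32-fold), where it was number 68 of 14217 genes. Against SON, with 1323 ± 469 (SD, n = 4), Vim in NIL fell by 0.77 (SE 0.257, adjusted p = 0.0233). That fall was lost without SON array 1 (−0.55, adjusted p = 0.119) or SON array 3 (adjusted p = 0.0571). It was also lost with quantile normalization (adjusted p = 0.0705) and without an intensity trend (adjusted p = 0.0502).

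The PVN value of Vim rested on PVN array 3. With that array, PVN averaged 896 ± 501 (SD, n = 5), NIL minus PVN was −0.17 (adjusted p = 0.632) and PVN minus SON was −0.60 (adjusted p = 0.168). Without it, PVN averaged 674 ± 57.8 (SD, n = 4), NIL minus PVN was 0.13 (adjusted p = 0.591), and Vim was lower in PVN than in SON by 0.90 on the log2 scale (adjusted p = 0.00143). Markers of the meninges moved with it. Ptgds, the prostaglandin D synthase of leptomeninges, had 358, 371, 4749, 231 and 451 in PVN, against 6152, 5036, 6313 and 4986 in SON. Col1a2, a fibroblast collagen picked after its values were seen, had 21.3, 16.7, 1326, 28.1 and 31.9 in PVN, against 1046, 435, 763 and 274 in SON. In both genes PVN array 3 was the array that stood with SON, and SON arrays 1 and 3, the brightest in Vim, were also the brightest in Col1a2. Of the 10 meningeal and fibroblast markers, 9 were lower in PVN than in SON and all 10 without PVN array 3. Their summed intensity was 834 to 11456 in PVN and 8108 to 13639 in SON. The sum was 6605 to 8295 in NIL, against 2881 to 4295 in SHR RVLM, where Vim was lowest. The RVLM sum was mostly Ptgds, which had 2104 to 3454 there, whereas Col1a2 had 30.4 to 52.3. In NIL Ptgds had 2471 to 3645 and Col1a2 had 390 to 632. The sum thus does not weigh the markers alike across structures. Of the 10 markers, 6 were higher in NIL than in RVLM, with a median log2 difference of 1.83, and their part in the Vim difference between NIL and RVLM was not tested. Against PVN, 7 were higher in NIL, with a median of 2.53 (8, with a median of 3.37, without PVN array 3). In PVN without array 3, none of the 10 was higher than in RVLM and 6 were lower. Vim was higher there than in RVLM by 2.16 (adjusted p = 1.44e-09). The part of meningeal cells in the Vim values of PVN, SON and RVLM was not tested either.

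**Figure D2:**
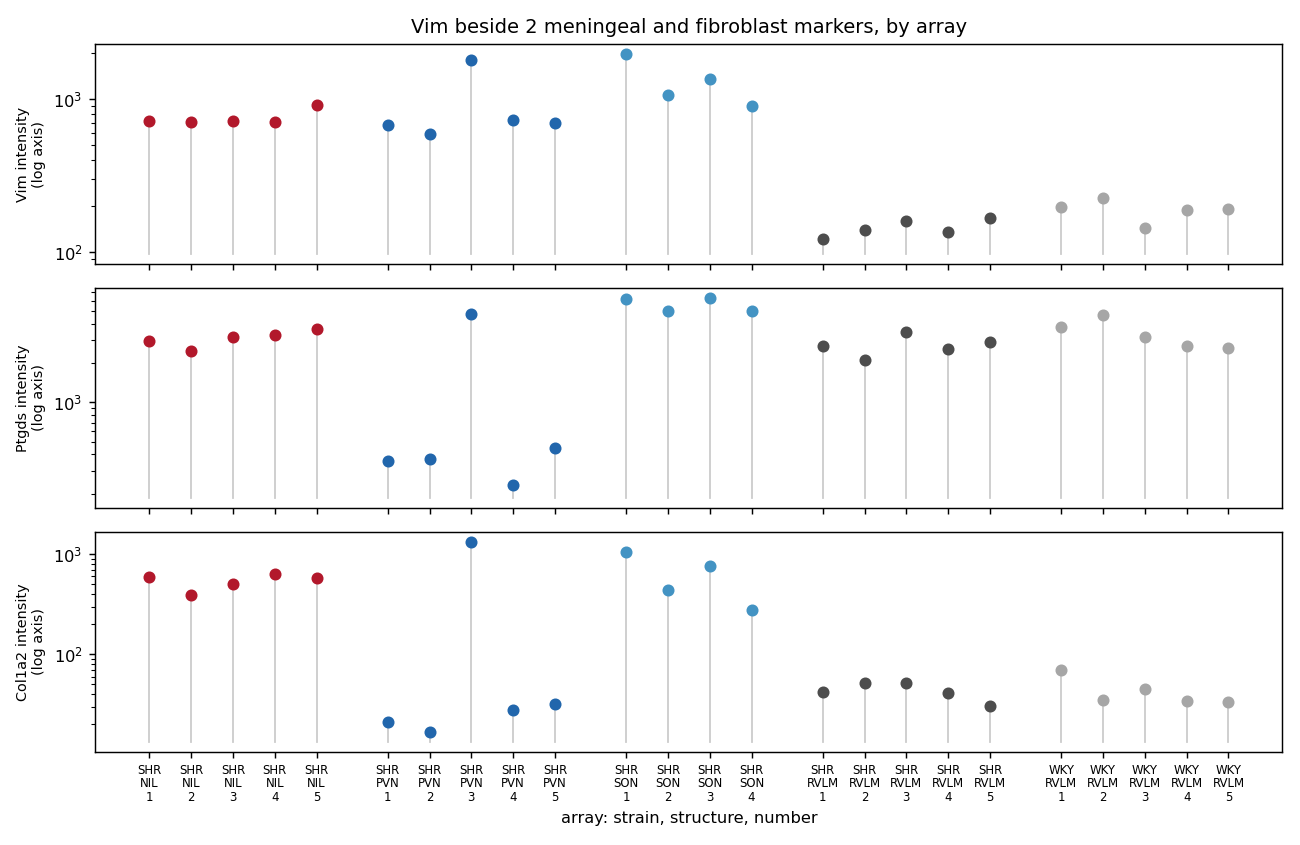
Intensity (log axis) of Vim and of the meningeal and fibroblast markers Ptgds and Col1a2 on each of the 24 arrays, grouped from left to right as SHR NIL, SHR PVN, SHR SON, SHR RVLM and WKY RVLM. PVN array 3 stands out from the other PVN arrays in all 3 genes (1787, 4749 and 1326). In the RVLM, Ptgds is at 2104 or more and Vim is at or below 225.

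Of 16 other intermediate filament genes and partners, 5 were higher in NIL than in SON, 9 were lower and 2 did not pass, with a median of −0.55 against 0.03 over all genes. The simple epithelial keratins led the rises: Krt18 by 5.24 (708 ± 85.0 in NIL, 18.6 ± 2.85 in SON), Krt19 by 3.65 and Krt8 by 3.48. The falls were led by Gfap at −4.30 (196 ± 45.7 in NIL, 3769 ± 387 in SON) and the neuronal filaments Nefm at −3.29 and Prph at −2.88. Keratins are made by the epithelial cells of the anterior and intermediate lobes, and the melanotroph markers summed to 2869 to 3925 in NIL and 256 to 306 in SON, and their part in these rises was not tested. Against PVN 5 of the 16 were higher and 7 lower, with 4 higher without PVN array 3 and 3 without NIL array 1, and against RVLM 6 were higher and 7 lower.

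Between PVN and SON, none of the 7 genes was called by limma (background 10.8% of genes in either direction), although Rax and Vim had an unadjusted p under 0.05. Without PVN array 3, 1 gene, Vim, was called. Against RVLM, 4 of the 7 were higher in PVN (background 20.8% higher, 15.0% lower) and 4 were higher in SON (background 19.9% higher, 15.8% lower). In each case these were Lhx2, Nkx2-1, Sox3 and Vim, and none was lower. The 2 comparisons share the RVLM arrays. The arrays of 3 of the genes, Lhx2, Nkx2-1 and Vim, did not overlap in either, where 25.3% of all genes did not overlap between PVN and RVLM and 37.5% between SON and RVLM. The median of the 7 was 0.81 in PVN minus RVLM and 0.76 in SON minus RVLM, against 0.08 and 0.07 over all genes.

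**Figure D3:**
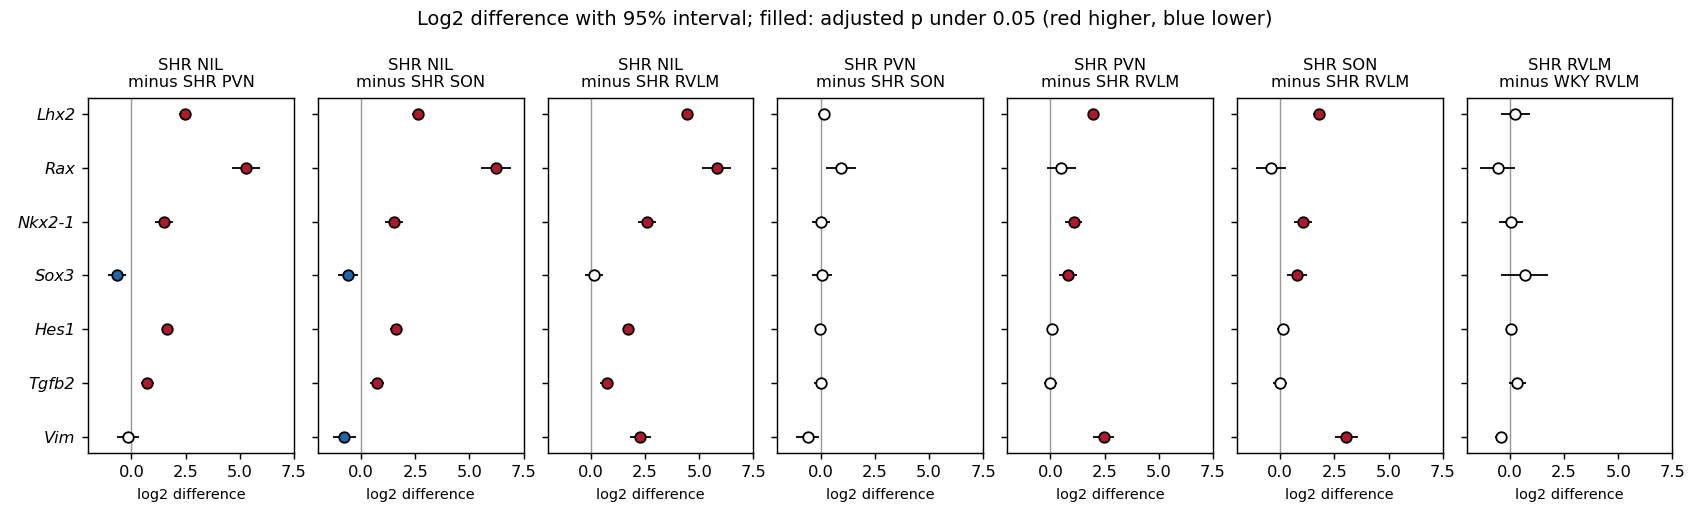
Log2 difference of each gene in the 7 comparisons, with its 95% interval; filled points passed an adjusted p under 0.05, red for higher and blue for lower in the group named first. Lhx2, Rax, Nkx2-1, Hes1 and Tgfb2 are filled red in all 3 NIL panels, Hes1 and Tgfb2 are open at about 0 among the other structures, and all 7 genes are open in the strain panel.

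The strain comparison asked whether these genes differ between SHR and WKY in the RVLM. None of the 7 was called by limma (background 0.886% of genes in either direction), and 1, Vim, had an unadjusted p under 0.05. Vim had 122, 139.8, 161, 135 and 167 in SHR, against 198, 225, 144, 188 and 192 in WKY. Most WKY arrays were above the SHR arrays, and WKY array 3 lay among them. The means were 145 ± 18.9 in SHR and 189.5 ± 29.2 in WKY (SD, n = 5 each), and the log2 difference was −0.41 (SE 0.136, 95% interval −0.70 to −0.12, adjusted p = 0.312). The brightest probe set of Tgfb2 had 69.5 to 112 in SHR and 50.1 to 83.3 in WKY, a difference of 0.34 (95% interval −0.06 to 0.74, adjusted p = 0.690). Its second probe set had the opposite sign, −0.15 (95% interval −0.65 to 0.34, adjusted p = 0.904). Hes1 averaged 85.9 ± 7.56 in SHR and 80.2 ± 8.68 in WKY, a difference of 0.07 (95% interval −0.19 to 0.33). The other 4 genes were dim in the RVLM of both strains. Lhx2 averaged 22.7 ± 4.24 in SHR and 20.0 ± 8.52 in WKY, Nkx2-1 averaged 23.2 ± 5.60 and 22.9 ± 8.62, and Rax averaged 7.002 ± 1.80 and 10.7 ± 5.06, in SHR and WKY. Sox3 had 21.7 to 40.6 in SHR, against 33.2, 4.06, 29.1, 35.7 and 10.1 in WKY, whose arrays 2 and 5 were lowest, and its difference of 0.69 had a 95% interval of −0.39 to 1.77.

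Other genes of tanycytes and pituicytes were read from a list of 18, of which 16 were on the array. In NIL minus SON 11 were higher, 2 were lower and 3 did not pass, with a median log2 difference of 1.69 against 0.03 over all genes. Against PVN 10 of the 16 were higher and 1 lower, and against RVLM again 10 were higher and 1 lower. Six6, a homeodomain factor of the eye and pituitary, rose by 6.83 against SON (414 ± 23.6 in NIL, 5.65 ± 4.61 in SON). Scn7a, an atypical sodium channel of glia that senses sodium, rose by 5.57 (2636 ± 217 in NIL, 56.0 ± 13.9 in SON), and Six3, a relative of Six6, rose by 4.51. Adm, which encodes adrenomedullin, and Col25a1, a membrane collagen, both picked after their values were seen, rose by 3.27 and 1.73. The falls were S100b, a calcium-binding protein shared by astrocytes and pituicytes, at −2.25 (723 ± 54.6 in NIL, 3411 ± 234 in SON), and the Wnt antagonist Frzb at −0.88. Sox2, which is also on this list, rose by 0.47 against SON (adjusted p = 0.0208), and averaged 680 in NIL and 694 in PVN. A filter that removes the dimmest 40% of probe sets took out Rax and left 7 of the listed genes higher against SON.

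Another 4 lists surround the regulators. Over all genes the median was 0.03 against SON, 0.02 against PVN and 0.11 against RVLM. Of all genes, 21.2% were higher in NIL than in SON and 19.7% lower. Of 14 LIM homeodomain genes and cofactors on the array, of 20 listed, 5 were higher in NIL than in SON and 3 were lower, with a median of 0.18. The cofactor Ssbp2 rose by 1.61, the LIM-only protein Lmo4 by 1.43 (2307 ± 106 in NIL, 852 ± 85.1 in SON) and Lhx1 by 0.99, whereas Ldb2 fell by 1.22, Lmo3 by 1.01 and Lhx9 by 0.99. Against PVN 3 LIM genes were higher and 4 lower, with a median of −0.35 (−0.49 without PVN array 3). Against RVLM 4 LIM genes were higher and 4 lower, with a median of 0.24. Of 12 other Sox genes, of 16 listed, 3 were higher in NIL than in SON and 1 was lower, with a median of 0.21: Sox4 rose by 1.81, Sox13 by 0.49 and Sox2 by 0.47, and the endothelial Sox17 fell by 1.37. The rise of Sox2 was against SON, with means of 680 in NIL, 694 in PVN and 487 in SON. The number of Sox genes lower against SON was 2 without NIL array 1 or 2 or without PVN array 3 or 4. Against PVN 3 Sox genes were higher and 2 lower, with 4 higher without PVN array 3 and 1 lower without NIL array 3 or PVN array 5, and against RVLM 4 were higher and 3 lower. Of 14 inductive signals of the neurohypophysis, of 16 listed, 5 were higher, 3 were lower and 6 did not pass, with a median of 0.17. Fgf10, the infundibular growth factor that sustains Rathke's pouch in mice, rose by 4.50 (96.5 ± 11.6 in NIL, 6.20 ± 6.57 in SON), Fgf18 by 3.87 and Wnt5a by 1.16, and Fgfr3 fell by 2.22 and Bmp4 by 1.05. Fgf18 averaged 9.71 ± 4.09 in NIL and 0.617 ± 0.172 in SON, below every array median in both. Against PVN 6 inductive signals were higher and 3 lower, with a median of 0.32 (7 and 3, with a median of 0.23, without PVN array 3). Against RVLM 5 were higher and 4 lower, with a median of −0.42.

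Homeodomain regulators of the hypothalamus and pituitary, the class of Lhx2, Rax and Nkx2-1, went both ways. Of 15 on the array, of 22 listed, 5 were higher in NIL than in SON, 4 were lower and 6 did not pass, with a median of −0.23. Beside Six6 and Six3, Pitx1, a factor of the anterior and intermediate lobes, rose by 3.90 (175 ± 27.9 in NIL, 15.6 ± 10.8 in SON). Sim1, which in mice is needed to form the neurons of the PVN and SON, fell by 4.51 (6.70 ± 4.98 in NIL, 96.8 ± 20.3 in SON), Dlx1 by 2.41 and Otx2 by 2.31. Against PVN 6 of the 15 were higher and 5 lower, with a median of 0.20 (5 and 5, with a median of 0.04, without PVN array 3). Against RVLM 5 were higher and 3 lower, with a median of 0.39.

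Astrocyte markers moved the other way from the 5 genes. All 10 were lower in NIL than in SON, in PVN and in RVLM, with median log2 differences of −2.26, −2.38 and −2.81, and 9 of 10 were lower than in PVN without PVN array 3. They summed to 4126 to 4610 in NIL, against 12658 to 17494 in PVN, 16670 to 19618 in SON and 18026 to 21854 in SHR RVLM. Of 8 anterior lobe hormone markers, 6 were higher in NIL than in SON, and they summed to 2972 to 16772 across the NIL arrays. Over those arrays Lhx2 spanned 493 to 566, Rax 332 to 471, Nkx2-1 133 to 164 and Hes1 265 to 325. NIL array 5, lowest in Gh1 and Prl, had the highest value of Nkx2-1 and Vim and the lowest of Hes1, and the part of anterior lobe cells in these values was not tested.

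**Figure D4:**
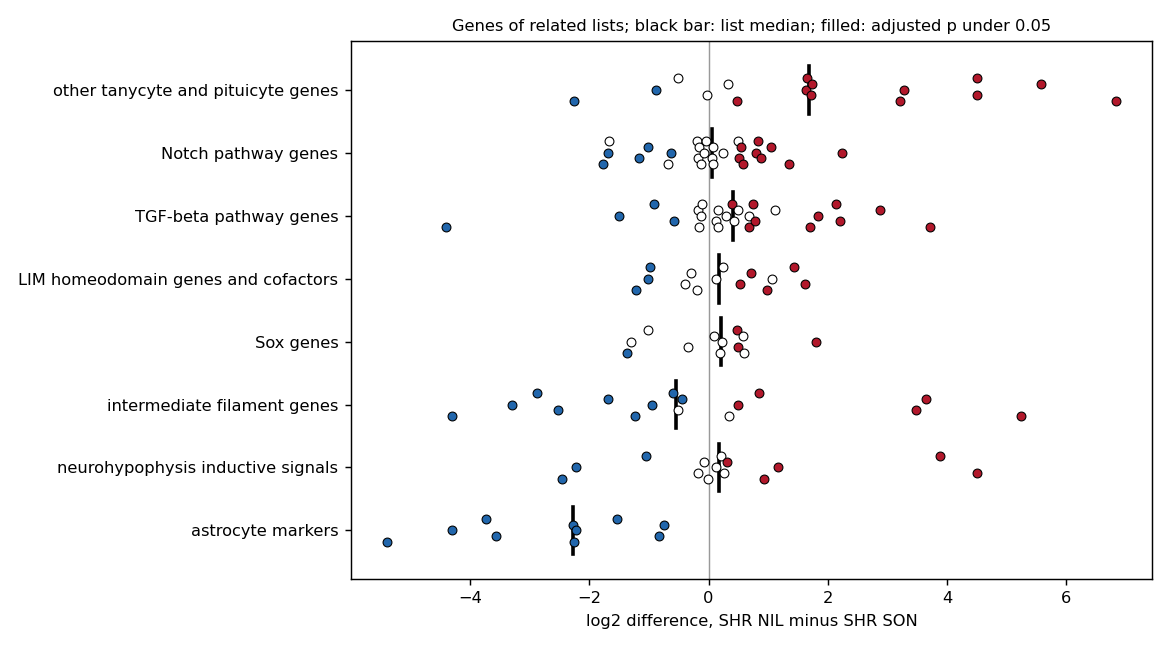
Log2 difference in SHR NIL minus SHR SON of every measured gene of 8 lists; each point is a gene, filled where its adjusted p was under 0.05 (red higher, blue lower), and the black bar is the median of the list. The tanycyte and pituicyte genes have a median of 1.69 with 11 filled red, the Notch and TGF-beta genes spread to both sides with medians of 0.06 and 0.41, and all 10 astrocyte markers are filled blue.

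Over the 24 arrays the profiles of the genes fell into pairs that were alike and pairs that were not. These correlations are of log2 intensity across arrays, mostly reflect the differences between structures that the arrays share, and are given as descriptions. Lhx2 and Nkx2-1 had r = 0.937, and Rax and Hes1 r = 0.928. Vim had r = 0.71 with Lhx2 and 0.213 with Rax, and Sox3 had r between −0.10 and 0.46 with the other 6 genes. Among 10487 other genes with intensity above the dimmest 40% of probe sets, those most like Lhx2 were Igfbp5, a binding protein of insulin-like growth factors (r = 0.984), the cyclin Ccnd2 (r = 0.981) and the scaffold Iqgap1 (r = 0.980). Those most like Rax were the heart myosin Myh6 (r = 0.968), the coagulation factor gene F5 (r = 0.967) and Lrrc1 (r = 0.966). For Nkx2-1 they were the matrix protein Matn2 (r = 0.964), Trim5 (r = 0.955) and again Igfbp5 (r = 0.953), and for Hes1 Pbxip1 (r = 0.978), the granule protein gene Chgb (r = 0.976) and Rab27a (r = 0.968). For Tgfb2 they were Banp (r = 0.907), C1h11orf58 (r = 0.880) and Zfp260 (r = 0.879). For Vim they were the opioid precursor Pdyn (r = 0.960), the peptide-amidating enzyme Pam (r = 0.956) and the protease inhibitor Timp2 (r = 0.955). Sox3 had the weakest neighbours, Prrt4 (r = 0.805), Myo5b (r = 0.781) and Clasrp (r = 0.758).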

How the data were processed

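Each of the 24 arrays is 1 pool of 5 rats, per the labels. The authors deposited intensity on a linear scale. The submitters' processing notes name GCOS 1.2 and no parameters. Every array of the deposited table had a 2% trimmed mean between 99.6 and 99.8. No depth applies to arrays, so no counting interval is given. Of 31099 probe sets, 57 controls were left out. The annotation gave 20826 of the rest a single gene, 436 several and 9780 none.

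Intensities were log2-transformed with no pseudocount, arrays were shifted to a common median, and no intensity filter was used. The test was limma 3.58.1 under R 4.3.3 (lmFit, then eBayes with an intensity trend), over the 19 SHR arrays for structures and the 10 RVLM arrays for strain, and p-values were Benjamini-Hochberg adjusted over 31042 probe sets. SE is that of the log2 difference, and means and SDs are of intensity. The members and lists were chosen with earlier results of these data known. From each list the text names at most 3 genes higher and 3 lower in NIL minus SON whose arrays do not overlap, and for each member the 3 genes with the highest correlation over the 24 arrays. Pomc, Avp, Oxt, Crh, Gh1, Prl, Gfap and Ptgds are named as checks of the labels and of other cell types. Genes named outside these rules are said to have been picked after their values were seen. The fits were tested on simulated data. Promoters are from RefSeq GRCr8 and all 7 genes matched. No coordinates of probe sets are given because no build is named for them.

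Alternatives tried were eBayes without a trend, quantile normalization, values as deposited, a pseudocount of 16 or 64, removal of probe sets under the 40th percentile, other arrays in the fit, the replicate number as a block, genes as the mean of their probe sets, and each array left out in turn. Counts of list genes under these settings and without PVN array 3 were added after seeing the data. Array numbers come from the titles. Same-numbered arrays of 2 groups had correlations of their deviations between −0.117 and 0.166, and the numbers were not taken to pair arrays. The highest were between PVN and SON, where the 4 same-numbered pairs had 0.079 to 0.166. Their mean was 0.108, against −0.029 for arrays of unlike number, so pairing of these 2 groups is not excluded. The fit with the replicate number as a block allows for it.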

Additional observations from a re-analysis of the deposited data

Results flagged for a closer look

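Of 35 gene and group combinations (7 genes, 5 groups), 3 held an array whose gap to the rest exceeded Dixon's 95% critical value, a rule that marks about 1 group in 20 by chance. Vim had 1787 in PVN array 3, against 593 to 726 in the other 4 PVN arrays. The meningeal markers Ptgds and Col1a2 were high on the same array, and their part was not tested. Vim had 913 in NIL array 5, against 705 to 717 in the other 4. Rax had 2.35 in SON array 1, against 6.68 to 7.22 in the other 3, all of them below the lowest array median.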

How the results depend on the processing

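Over all alternatives, 1286 of the recomputed differences of the 7 genes kept their direction and their side of the threshold, 15 lost a call, 1 gained a call and 39 changed sign. The rises of Lhx2, Rax, Nkx2-1, Hes1 and Tgfb2 in NIL kept their calls under every alternative that could be run. The filter at the 40th percentile left Rax out, because it is dim outside NIL. Use of the second probe set of Tgfb2 alone was not among the alternatives. With it, limma did not call Tgfb2 against PVN or SON (adjusted p = 0.323 and 0.809). The 15 lost calls were those of Sox3 and of Vim in NIL minus SON, whose values are given with those genes. With the replicate block, Sox3 in NIL minus SON was −0.56 (adjusted p = 0.0689), and the block changed no other call of the 7 genes. The same call was lost with values as deposited (adjusted p = 0.0556).

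Every change of sign was in a difference that was not called. Tgfb2 in PVN minus RVLM (−0.0045) became 0.046 with values as deposited, 0.00027 and 0.0031 with a pseudocount of 16 and 64, and 0.21 as the mean of its probe sets. Tgfb2 in SON minus RVLM (−0.0021) became 0.077 with values as deposited, 0.015 with quantile normalization, 0.0074 and 0.012 with the 2 pseudocounts, 0.041 with the replicate block and 0.31 as the mean of its probe sets. Nkx2-1 in PVN minus SON became −0.0063 with values as deposited and −0.0073 with quantile normalization, and in the strain comparison −0.0028 with a pseudocount of 64. Rax in SON minus RVLM became 0.018 as the mean of its probe sets. With each array left out in turn, Tgfb2 ranged from −0.097 to 0.11 in PVN minus RVLM, from −0.094 to 0.11 in SON minus RVLM and from −0.090 to 0.064 in PVN minus SON. In PVN minus SON Nkx2-1 ranged from −0.13 to 0.19, Sox3 from −0.090 to 0.19 and Hes1 from −0.099 to 0.036. Nkx2-1 ranged from −0.092 to 0.21 in the strain comparison, and Vim from −0.28 to 0.13 in NIL minus PVN. The number of the 7 genes called in PVN minus SON was 0 to 1, with 1 without PVN array 3.

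Over all genes, 1539 were called in PVN minus SON, 586 with only those 2 groups in the fit, 2392 without PVN array 3 and 874 without SON array 3. The strain comparison called 126 genes, and 62 without an intensity trend. The filter at the 40th percentile, which leaves fewer genes to test, reduced the genes called higher in NIL than in SON to 7 (of 11) on the tanycyte and pituicyte list and to 2 (of 5) among the inductive signals, whose counts against PVN and RVLM were 3 (of 6) and 3 (of 5), and the TGF-beta genes called lower to 2 (of 4) against SON, 3 (of 5) against PVN and 1 (of 2) against RVLM. TGF-beta genes lower against RVLM were 4 with only those 2 groups in the fit or with genes as the mean of their probe sets, where those lower against PVN were 3. Sox genes lower against SON were 2 with the filter, with all 24 arrays or with only those 2 groups in the fit, and 0 with genes as the mean of their probe sets. Of the homeodomain regulators the filter left none higher (of 6, 5 and 5 against PVN, SON and RVLM) and 2 (of 5), 2 (of 4) and 1 (of 3) lower, and it left 2 (of 4) LIM genes lower against RVLM. Sox genes lower against PVN were 1 (of 2) with values as deposited or with the mean of probe sets. Tanycyte and pituicyte genes lower against RVLM were 2 with either pseudocount or as the mean of their probe sets. Dim signal limits the size of every difference of Rax, of Lhx2 and Nkx2-1 against RVLM, and of Sox3 where NIL or RVLM is compared. In NIL minus SON it also limits Six6, Six3, Fgf10, Fgf18, Wnt5a, Inhbb, Krt18, Krt19, Pitx1 and Ltbp2. The same holds there for Hes5, Sim1, Dlx1, Otx2, Maml1, Tgif2, Lhx1, Lhx9, Prph, Bmp4 and Adm.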
